A study of Homo sapiens with 2 samples.

Results

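The genes described here encode the RNA polymerase III (Pol III) machinery: the subunits of the enzyme, the initiation factors TFIIIA, TFIIIB and TFIIIC, the snRNA activating protein complex (SNAPc), the repressor MAF1, the La protein SSB and the activators POU2F1 and ZNF143. They were taken by gene name and number 37 of the 61541 genes in the deposited table. RNA-seq was performed on Huh7, a human hepatocellular carcinoma (HCC) cell line, to ask how loss of BRF2 alters mRNA levels. Huh7-NC cells received a control siRNA and Huh7-si cells an siRNA against BRF2, and each condition was sequenced as 1 library. Both conditions use the same line, and the labels name no other allele or agent. The design text speaks of infection with the siRNA and the methods of transfection. The study describes a pair of independent BRF2 siRNAs. Which of them was used for sequencing and the time of harvest are not given in the sources used here.

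Pol III transcribes short noncoding RNAs such as 5S rRNA, the tRNAs, 7SK, U6 and the RNA components of RNase P and RNase MRP. TFIIIB, which recruits the enzyme, exists in 2 forms that share TBP and BDP1 and differ in their TFIIB-related subunit. The form with BRF1 serves 5S rRNA and tRNA genes, to which TFIIIC (and TFIIIA for 5S) brings it, whereas the form with BRF2 serves the U6 and 7SK type of promoter, where SNAPc binds upstream of the start. In liver cells this machinery is known for supplying the tRNA and ribosome pools that growth requires, and MAF1 is known for holding it back when nutrients are scarce.

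The libraries held 22852648 (Huh7-NC) and 22089016 (Huh7-si) estimated reads. All 37 genes were detected, the least covered with 426 reads over both libraries. With 1 library per condition there was no replicate check and no p-value could be given, so the ratio of reads scaled to the library total (CPM), Huh7-si over Huh7-NC, is shown as its log2 (log2FC) with a 95% Clopper-Pearson interval, which covers counting error only and not the spread between cultures. Below, a gene is called higher or lower when its fold change reached the stated threshold and this interval left out no change. All 10 hepatoma markers examined had at least 10 reads in both libraries, and their summed CPM was 19354 (Huh7-NC) and 20170 (Huh7-si). Of 4 markers each, 1 immune marker (summed 10.7 and 11.2 CPM), 3 fibroblast markers (42.5 and 96.6 CPM), 1 endothelial marker (2.76 and 2.99 CPM) and 3 cholangiocyte markers (366 and 381 CPM) reached 10 reads in each library, and CD3E, DCN and KDR were at 0 in both. The part of these levels in the results was not tested. In RNA from whole cultures, fewer expressing cells and less RNA per cell cannot be told apart.

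The siRNA target was the member that changed most. BRF2 (ENSG00000104221), the TFIIIB subunit of U6-type promoters, had 1281 reads in the control library and 364 after knockdown, or 56.0 and 16.5 CPM. Its level decreased by 70.6%, a log2FC of -1.77 (interval -1.94 to -1.60), and its TPM, which is scaled for transcript length, went from 30.8 to 10.2. BRF2 was the only member called at a 2-fold threshold. Among the 17921 genes with at least 10 reads, 12.4% were higher and 1.14% lower at that threshold, against 0 and 1 of the 37 members. The gene overlapping BRF2 on the opposite strand, ADGRA2, had 11.5 and 9.28 reads, few beside those of BRF2.

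The other TFIIIB subunits did not all move in the direction of BRF2. BRF1 (ENSG00000185024), its paralog at tRNA and 5S genes, had 676 reads in the control library and 581 after knockdown. By CPM the log2FC of BRF1 was -0.17 (-0.33 to -0.01), while its TPM went from 11.8 to 15.1, a log2 difference of 0.35 in the opposite direction. The CPM and TPM columns therefore place BRF1 on different sides of no change. With edgeR's TMM scaling and with the median of ratios of DESeq2, BRF1 was at -0.37. Relative to the median of genes of like length it was at -0.42. By TPM, the median log2 difference of all genes with at least 10 reads was 0.39, so BRF1 was near that median. Estimated reads divided by TPM track the transcript length behind the TPM, and for BRF1 this quotient was lower in Huh7-si by 0.33 on the log2 scale relative to the median gene, outside the range from -0.28 to 0.26 that held the middle of 9697 genes (percentiles 5 to 95). Of 36 members with enough reads for this quotient, POLR1D (-0.45) and POLR3D (0.27) were the others outside that range. BRF1 also lies over BTBD6 (430 and 260 reads) and PACS2 (834 and 995 reads) on the opposite strand, and the strand setting of the counting is not given in the sources used here.

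BDP1 (ENSG00000145734), the subunit common to both TFIIIB forms, had the highest log2FC of the 37 genes. It had 344 reads in the control library and 632 after knockdown, and its TPM went from 3.10 to 5.69. The fold change was 1.90, or 0.93 on the log2 scale (0.73 to 1.12). BDP1 is also among the longest of these genes by the deposited length, at 11037 bases. The median log2FC of genes of like length was 0.67, so that BDP1 stood 0.25 above it. TBP (ENSG00000112592), used by all nuclear RNA polymerases, had 629 and 687 reads and a log2FC of 0.18 (0.02 to 0.33), which became -0.02 with edgeR's TMM scaling. Per length, BRF2 was the more abundant paralog in Huh7-NC, at 2.59 times the TPM of BRF1, and the less abundant in Huh7-si, at 0.679 times. The TPM of BRF2 relative to BDP1 went from 9.92 to 1.80, and relative to TBP from 1.38 to 0.347.

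**Figure D1:**
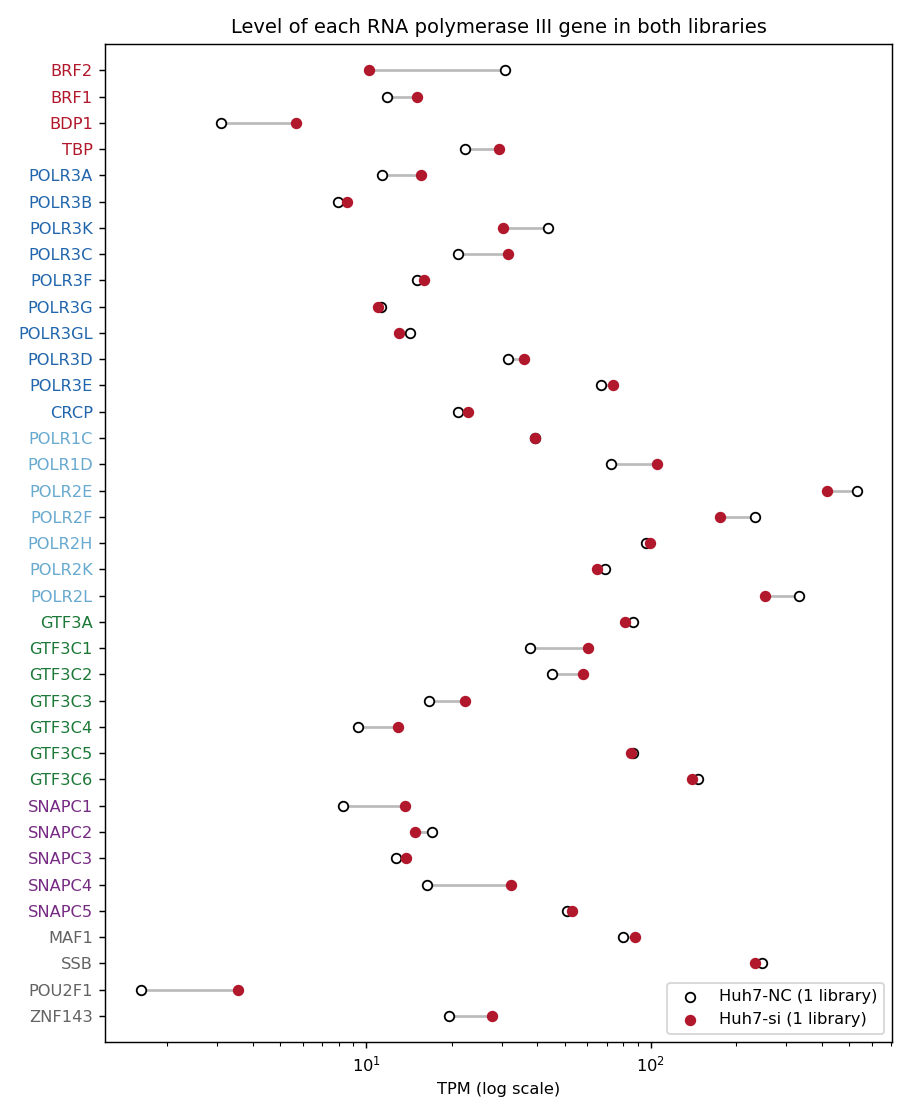
TPM of each of the 37 Pol III genes (log axis) in Huh7-NC (open circles) and Huh7-si (filled circles), 1 library each, with gene names coloured by role. BRF2 moved from 30.8 to 10.2 TPM, and levels span 1.62 (POU2F1) to 530 TPM (POLR2E) in Huh7-NC. The other TFIIIB genes were higher in Huh7-si on this scale, by log2 differences of 0.35 (BRF1), 0.41 (TBP) and 0.88 (BDP1). The median over all genes with at least 10 reads was 0.39, near BRF1 and TBP.

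To show sequence context, upstream promoters are printed here for members whose CPM differed most among the 30 with a RefSeq promoter window. These are the 2 highest (BDP1 and POU2F1) and the 2 lowest (POLR3K and POLR2F) by log2FC. Each stretch holds the 250 bases before the annotated start, 5' to 3' on the gene's strand (RefSeq, GRCh38.p14). BRF2, POLR3G, POLR3D, CRCP, POLR2K, SNAPC4 and MAF1 had no window, so the motif search does not cover them. BDP1 lies at chr5:71455401-71455650 (+), POU2F1 at chr1:167220636-167220885 (+, the first of 3 windows), POLR3K at chr16:53609-53858 (-) and POLR2F at chr22:37953449-37953698 (+, the first of 2 windows). Capitals mark matches, on either strand, to 8 motifs searched: the TATA box (TATAAA), the CCAAT box of NF-Y (CCAAT), the E-box of MYC and MAX (CACGTG), the core of the ZNF143 motif (ACTACAA), the ETS motif (CCGGAAG), the NRF1 motif (GCATGCGC), the octamer of POU2F1 (ATGCAAAT) and the YY1 motif (AAGATGGCG).
BDP1: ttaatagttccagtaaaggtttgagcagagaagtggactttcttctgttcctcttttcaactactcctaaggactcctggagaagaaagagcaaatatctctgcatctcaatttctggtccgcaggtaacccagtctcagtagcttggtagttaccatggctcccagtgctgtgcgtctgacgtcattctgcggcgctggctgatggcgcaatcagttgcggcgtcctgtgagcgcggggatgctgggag
POU2F1: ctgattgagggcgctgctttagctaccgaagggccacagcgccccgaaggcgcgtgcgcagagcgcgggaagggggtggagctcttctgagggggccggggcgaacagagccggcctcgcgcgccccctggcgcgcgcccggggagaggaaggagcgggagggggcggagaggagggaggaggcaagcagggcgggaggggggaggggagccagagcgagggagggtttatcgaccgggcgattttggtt
POLR3K: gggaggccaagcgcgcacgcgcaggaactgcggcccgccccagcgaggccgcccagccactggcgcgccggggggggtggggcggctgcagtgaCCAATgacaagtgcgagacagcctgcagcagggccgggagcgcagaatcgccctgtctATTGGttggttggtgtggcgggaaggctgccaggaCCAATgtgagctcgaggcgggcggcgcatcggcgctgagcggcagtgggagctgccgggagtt
POLR2F: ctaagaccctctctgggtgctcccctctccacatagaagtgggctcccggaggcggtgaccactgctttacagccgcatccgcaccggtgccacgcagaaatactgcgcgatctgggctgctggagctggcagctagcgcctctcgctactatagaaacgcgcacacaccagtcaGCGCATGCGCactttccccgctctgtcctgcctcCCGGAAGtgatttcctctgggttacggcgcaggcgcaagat

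The BDP1 and POU2F1 stretches held none of the 8 motifs. POLR3K held 3 CCAAT boxes, 1 of them on the reverse strand, and POLR2F held 1 CCGGAAG (the ETS motif) and, overlapping each other on opposite strands, 2 matches to GCATGCGC. A match describes the letters of the window and is no evidence of binding.

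The 10 subunits found only in Pol III had TPM from 7.94 to 67.1 in Huh7-NC and from 8.57 to 73.7 in Huh7-si. Their median log2FC was -0.02, and 0.12 by TPM. One of them was called at 1.5-fold. POLR3K (ENSG00000161980), the small subunit that takes part in transcript cleavage and termination, had 966 reads in the control library and 576 after knockdown, giving a log2FC of -0.70 (-0.85 to -0.55), and its TPM went from 43.7 to 30.4. POLR3K, whose promoter holds the 3 CCAAT boxes shown above, stood 0.61 below the median of genes of like length and was, with BRF2, the other member that kept a 1.5-fold difference on that scale. The gene on its opposite strand, SNRNP25, had 1171 and 772 reads, a log2FC of -0.55, so both genes of this overlapping pair were lower in Huh7-si, and whether they share reads was not tested.

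The catalytic core changed less. POLR3A, the largest subunit, had 1403 and 1648 reads and a log2FC of 0.28 (0.18 to 0.38), whereas relative to genes of like length it stood at -0.15. POLR3B, with which it forms the active site, had 615 and 563 reads and a log2FC of -0.08 (-0.25 to 0.09). Relative to genes of like length POLR3B stood at -0.39. The TPM ratio of POLR3A to POLR3B went from 1.43 to 1.82. The largest subunits of the other polymerases were also higher by CPM: POLR1A of Pol I by 0.53 (0.47 to 0.60) and POLR2A of Pol II by 0.63 (0.59 to 0.67). Relative to genes of like length, POLR1A stood at -0.14, as did POLR3A at -0.15, whereas POLR2A stood at 0.20.

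Of the initiation subcomplex, POLR3C had 890 and 951 reads and a log2FC of 0.14 (0.01 to 0.28), which turned to -0.05 with TMM scaling and to -0.11 against genes of like length. POLR3F, its partner in opening the promoter, had 567 and 504 reads (log2FC -0.12, -0.30 to 0.05). The third partner is made by a pair of paralogs, POLR3G, known from stem and tumor cells, and POLR3GL, the form of most differentiated tissues. POLR3G (ENSG00000113356) had 346 reads in the control library and 343 after knockdown, giving a log2FC of 0.04 (-0.18 to 0.26). POLR3GL (ENSG00000121851) had 247 and 179 reads, a log2FC of -0.41 (-0.70 to -0.13). Per length the paralogs were at similar levels, with a TPM ratio of POLR3G to POLR3GL of 0.789 in Huh7-NC and 0.845 in Huh7-si.

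POLR3D and POLR3E form the subcomplex related to TFIIF. POLR3D had 931 and 1090 reads and a log2FC of 0.28 (0.15 to 0.40), or -0.14 relative to genes of like length. POLR3E had 1847 and 1700 reads and the highest TPM of the 10 subunits found only in Pol III, 67.1 and 73.7. Their TPM ratio was 0.469 in Huh7-NC and 0.486 in Huh7-si. CRCP, which belongs to the stalk of the enzyme, had 917 and 904 reads and a log2FC of 0.03 (-0.11 to 0.16).

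The 7 subunits that Pol III shares with other polymerases were the most abundant group per length, with a median of 96.7 TPM in Huh7-NC and 105 TPM in Huh7-si. None had an interval above no change and 4 had an interval below it, where 45.9% and 26.1% of all genes with at least 100 reads did. The group had a median log2FC of -0.26 (-0.46 with TMM, -0.10 by TPM, -0.21 relative to genes of like length). POLR2F (ENSG00000100142) had 1871 and 1173 reads, a log2FC of -0.62 (-0.73 to -0.52). POLR2L (ENSG00000177700) had 2961 and 1885 reads, a log2FC of -0.60 (-0.69 to -0.52). These small subunits common to all 3 nuclear polymerases were both called lower at 1.5-fold, and stood 0.57 and 0.43 below genes of like length. POLR2L lies over CD151 on the opposite strand, which had more reads (4898 and 4433, log2FC -0.09), and whether they share reads was not tested. POLR2E (ENSG00000099817), also common to all 3 enzymes, was the most abundant of the 37 genes, at 530 and 417 TPM, and its log2FC was -0.45 (-0.50 to -0.40). The remaining common subunits were POLR2K, with 947 and 763 reads (-0.26, -0.40 to -0.12), and POLR2H, with 1362 and 1238 reads (-0.09, -0.20 to 0.02). POLR1C and POLR1D, which form the assembly platform shared with Pol I, had log2FC values of -0.13 (-0.28 to 0.02) and -0.09 (-0.22 to 0.03). On the TPM scale POLR1D was higher in Huh7-si (72.6 and 105).

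**Figure D2:**
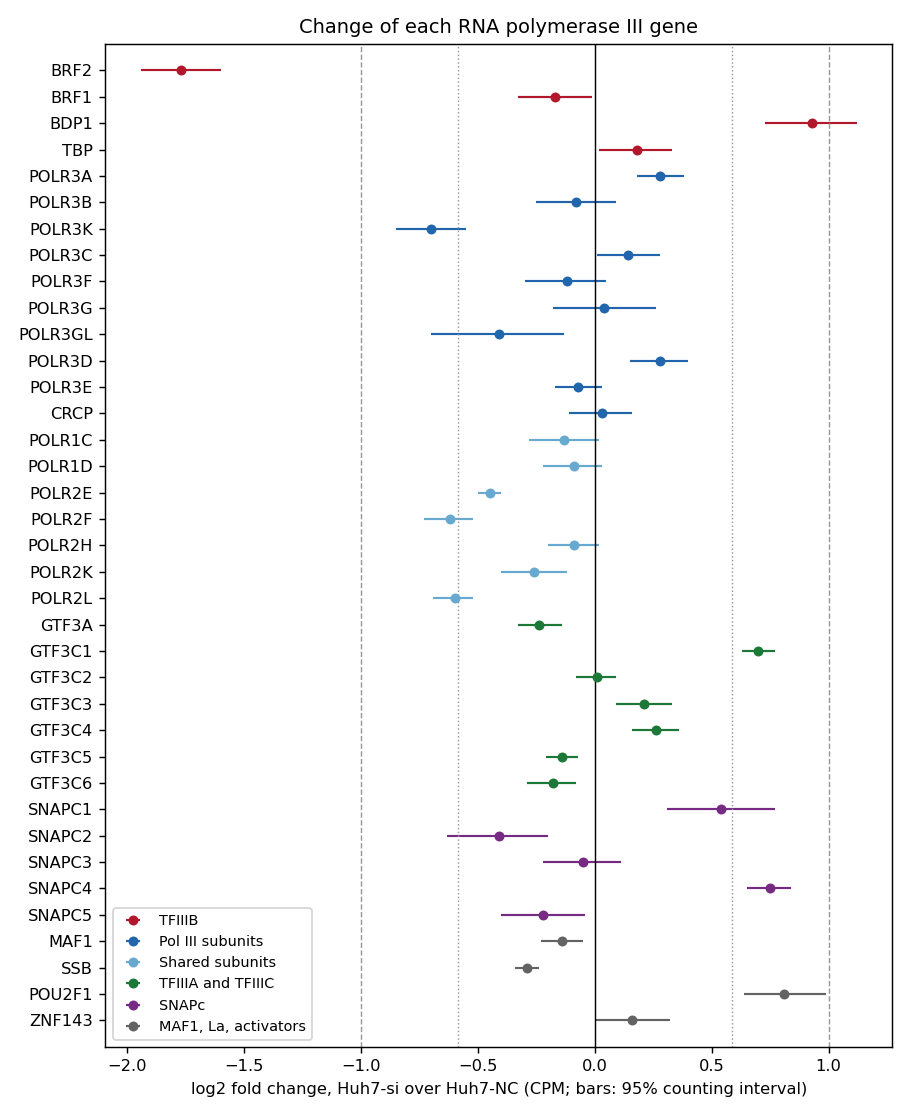
Log2 fold change of CPM, Huh7-si over Huh7-NC, of each Pol III gene, with 95% counting intervals; dotted lines mark 1.5-fold and dashed lines 2-fold. BRF2 (-1.77) lies past the 2-fold line, BDP1, POU2F1, SNAPC4 and GTF3C1 lie above 1.5-fold, and POLR3K, POLR2F and POLR2L lie below it.

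TFIIIA (GTF3A), the zinc finger protein that binds the 5S rRNA gene, had 1981 reads in the control library and 1624 after knockdown, giving a log2FC of -0.24 (-0.33 to -0.14). The 6 TFIIIC genes encode the complex that recognizes the internal promoter of tRNA genes. Their directions were mixed, with 3 intervals above and 2 below no change. Of all genes with at least 100 reads, 45.9% had an interval above and 26.1% below, a mix near that of these 6 genes. GTF3C1 (ENSG00000077235), the largest TFIIIC subunit, had 2589 reads in the control library and 4069 after knockdown, giving a log2FC of 0.70 (0.63 to 0.77), and stood 0.16 above genes of like length. GTF3C3 (1088 and 1219 reads) and GTF3C4 (1453 and 1682 reads) had log2FC values of 0.21 (0.09 to 0.33) and 0.26 (0.16 to 0.36), which turned to -0.10 and -0.41 relative to genes of like length. GTF3C5 (3227 and 2829 reads) and GTF3C6 (1653 and 1406 reads) had log2FC values of -0.14 (-0.21 to -0.07) and -0.18 (-0.29 to -0.08). GTF3C2 had 2216 and 2149 reads (0.01, -0.08 to 0.09). The TPM ratio of GTF3C6, the smallest subunit, to GTF3C1 went from 3.92 to 2.32, while relative to genes of like length GTF3C6 stood at -0.01.

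SNAPc is the partner of BRF2 at U6 and 7SK promoters, where it binds the proximal sequence element. SNAPC4 (ENSG00000165684), its DNA-binding subunit, had 1445 reads in the control library and 2348 after knockdown, and its TPM went from 16.4 to 32.4. The log2FC of SNAPC4 was 0.75 (0.65 to 0.84), and 0.37 relative to genes of like length. SNAPC1 had 263 and 369 reads and a log2FC of 0.54 (0.31 to 0.77), and at 0.42 it stood the farthest above genes of like length of all 37 members. SNAPC2 had 415 and 301 reads (-0.41, -0.63 to -0.20), SNAPC3 had 639 and 595 reads (-0.05, -0.22 to 0.11) and SNAPC5 had 584 and 485 reads (-0.22, -0.40 to -0.04). The 5 SNAPc genes therefore did not share a direction, and SNAPC5 turned to 0.06 by TPM.

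Activators bind the distal element of the same promoters. POU2F1 (ENSG00000143190; OCT1), which binds the octamer, had 422 reads in the control library and 717 after knockdown, giving a log2FC of 0.81 (0.64 to 0.99). It was the least abundant member per length, at 1.62 and 3.55 TPM, and on the TPM scale its log2 difference was 1.13, the only member past 2-fold in the higher direction on any scale used. By the deposited length POU2F1 is also the longest of the 37 genes (13843 bases), and it stood 0.14 above genes of like length. ZNF143, which activates the U6 and selenocysteine tRNA genes, had 607 and 655 reads, a log2FC of 0.16 (-0.00 to 0.32). MAF1 (ENSG00000179632), the repressor, had 2082 and 1830 reads and a log2FC of -0.14 (-0.23 to -0.05), whereas its TPM went from 80.1 to 87.8, a log2 difference of 0.13. SSB, the La protein that protects the 3' end of new Pol III transcripts, had 6753 and 5336 reads, a log2FC of -0.29 (-0.34 to -0.24).

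At a threshold of 1.5-fold, 4 members were higher (BDP1, GTF3C1, POU2F1 and SNAPC4) and 4 were lower (BRF2, POLR2F, POLR2L and POLR3K), 10.8% each. Among genes with at least 10 reads, 23.0% were higher and 3.83% lower at this threshold, and among the 12978 genes with at least 100 reads, 20.7% and 3.87%. The members thus held a smaller share of higher genes and a larger share of lower genes than the table as a whole, and BRF2, the siRNA target, is 1 of the 4 lower. Intervals left out no change upward for 11 members (29.7%) and downward for 15 (40.5%), against 45.9% and 26.1% of genes with at least 100 reads. The median log2FC of the members was -0.09, against 0.21 over genes with at least 10 reads and 0.14 over those with at least 100 reads. TMM scaling shifted all genes by -0.20 and the median of ratios of DESeq2 by -0.21, so that the members' median became -0.29 (all genes with at least 10 reads 0.01) and -0.30 (all genes 0.00), whereas by TPM it was 0.12 (all genes 0.39). The members' median was thus below that of all genes on each scale, while its sign depended on the scale.

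The sign of a member's log2FC went with its deposited length. Without BRF2, Spearman's rho between length and log2FC was 0.83 over 36 members (0.80 over all 37), as a description across genes that share the same 2 libraries. The same relation had a rho of 0.31 over the 17921 genes with at least 10 reads and 0.50 over the 12978 with at least 100 reads. All 12 of the shortest members (543 to 1443 bases) had a log2FC below 0, 9 of them with an interval that left out no change, and their median was -0.25. Of the 12 members between 1520 and 3671 bases, 5 had a log2FC above 0 (2 by interval) and 7 below (5 by interval), with a median of -0.09. Of the 12 longest (3690 to 13843 bases), 10 had a log2FC above 0 (9 by interval) and 2 below (0 by interval), with a median of 0.27. All genes with at least 10 reads were also split into 20 length bins. In the bins up to 1467 bases, medians ran from -0.17 to -0.05 and upper quartiles from 0.39 to 0.61. In the bins from 3635 bases, medians ran from 0.25 to 0.67 and lower quartiles from -0.01 to 0.34. The short class holds the shared subunits with POLR3GL, POLR3K, SNAPC5, GTF3C6 and GTF3A. In the long class are POLR3A, POLR3B, POLR3C, POLR3D, POLR3E, GTF3C1, GTF3C2, GTF3C3, GTF3C4, SNAPC4, BDP1 and POU2F1. Length here is the value in bases that the authors deposited for each gene, not the size of the protein. How it was measured is not given in the sources used here, and it is not taken as the genomic span.

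Each gene was also set against the median of genes of like length in the same libraries. On that scale the medians of the short, middle and long members were -0.19, -0.18 and -0.12, and rho fell to 0.27. No member was called higher at 1.5-fold and 2 were called lower, BRF2 (-1.89) and POLR3K (-0.61), or 5.41%, against 14.0% and 6.03% of genes with at least 10 reads. The 4 members called higher by CPM are thus not past 1.5-fold relative to genes of like length. By TPM the 3 length classes had medians of -0.09, 0.12 and 0.46. TPM divides by length within each library, and a length that both libraries share cancels from their ratio. It therefore cannot remove a relation of the ratio with length. TPM medians of all genes by length class were not computed. What sets the relation with length was not tested.

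**Figure D3:**
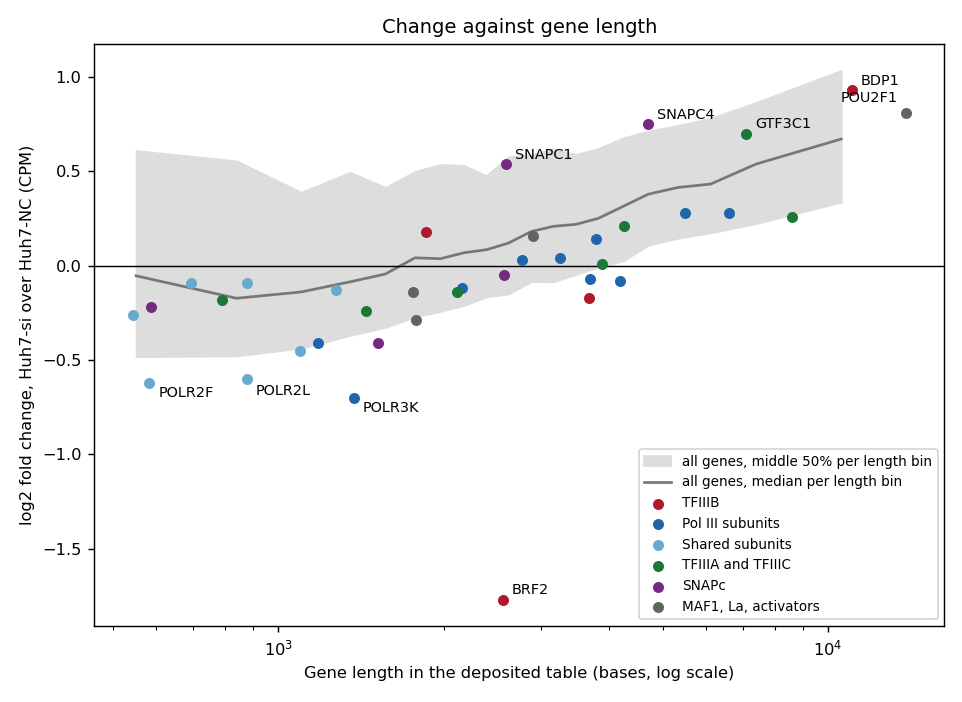
Log2 fold change of CPM (Huh7-si over Huh7-NC) of the 37 Pol III genes against the deposited length (bases, log axis), coloured by role. The line and band give the median and the middle 50% of all genes with at least 10 reads in 20 length bins. The members rise with length along the line (rho 0.83 without BRF2), and BRF2 lies far below it.

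Related genes were examined by list, against the 23.0% of genes with at least 10 reads called higher and the 3.83% called lower at 1.5-fold. Of the Pol III transcripts, 3 had at least 10 reads, and RN7SK and RN7SL2 were called higher at 1.5-fold. RN7SK, the 7SK RNA from a BRF2-type promoter, had 24 reads in the control library and 110 after knockdown, giving a log2FC of 2.22 (1.60 to 2.95). RN7SL1 and RN7SL2, the signal recognition particle RNAs, had 112 and 141 reads (0.38, 0.01 to 0.75) and 41.4 and 74.3 reads (0.89, 0.33 to 1.49). These RNAs have near-identical copies in the genome, so reads may be placed on the wrong copy and these values are uncertain. The fragment sizes kept are not given in the sources used here. The methods refer to a previous study for RNA-seq and do not name the RNA selection, which bears on how such RNAs are captured. All other Pol III transcripts of the list had at most 6 reads in either library, with RPPH1, for example, at 0 and 6 reads and RMRP at 0 and 5, where a count of 0 allows up to 3 reads (0.131 and 0.136 CPM), so U6, the Y RNAs, the vault RNAs and 5S rRNA could not be compared at this depth. For such short RNAs few reads can give a large TPM, and RNU6-7 was given 156 TPM from 3.65 reads in Huh7-NC.

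Among the 11 proteins of RNase P and RNase MRP, whose RNA components are Pol III products, none was called at 1.5-fold, and log2FC values ran from -0.52 (POP7) to 0.24 (RPP14). Of 18 tRNA processing genes, 1 was called higher, the deaminase subunit ADAT2, with 163 and 353 reads (1.16, 0.89 to 1.44), and none lower, the lowest being the splicing endonuclease subunit TSEN34 (-0.37, -0.48 to -0.27). Of 13 known regulators of Pol III, 3 were called higher and none lower, a share of higher genes near that of the whole table. They ran from MTOR, the kinase that keeps MAF1 inactive (0.88, 0.80 to 0.96), to CSNK2B, the regulatory subunit of casein kinase 2 (-0.43, -0.50 to -0.36). Relative to genes of like length MTOR stood at 0.21. The 4 relatives of TFIIB, TBP and the activators with at least 10 reads ran from -0.41 (GTF2B) to 0.36 (ZNF76), with none called.

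Of 12 Pol I genes, 1 was called higher at 1.5-fold and none lower, against the same 23.0% and 3.83%. It was TAF1C, a subunit of the Pol I selectivity factor, with 1080 and 2442 reads (1.23, 1.12 to 1.33), and the lowest was the small subunit POLR1H (-0.42, -0.66 to -0.18). Of 7 subunits found only in Pol II, POLR2A was called higher and POLR2I lower (-0.60, -0.74 to -0.45). The median log2FC values of the Pol I and Pol II genes were 0.21 and -0.49 by CPM, and -0.12 and -0.35 relative to genes of like length, beside -0.09 and -0.17 for the Pol III genes. Over all genes with at least 100 reads the median relative to genes of like length was -0.07.

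**Figure D4:**
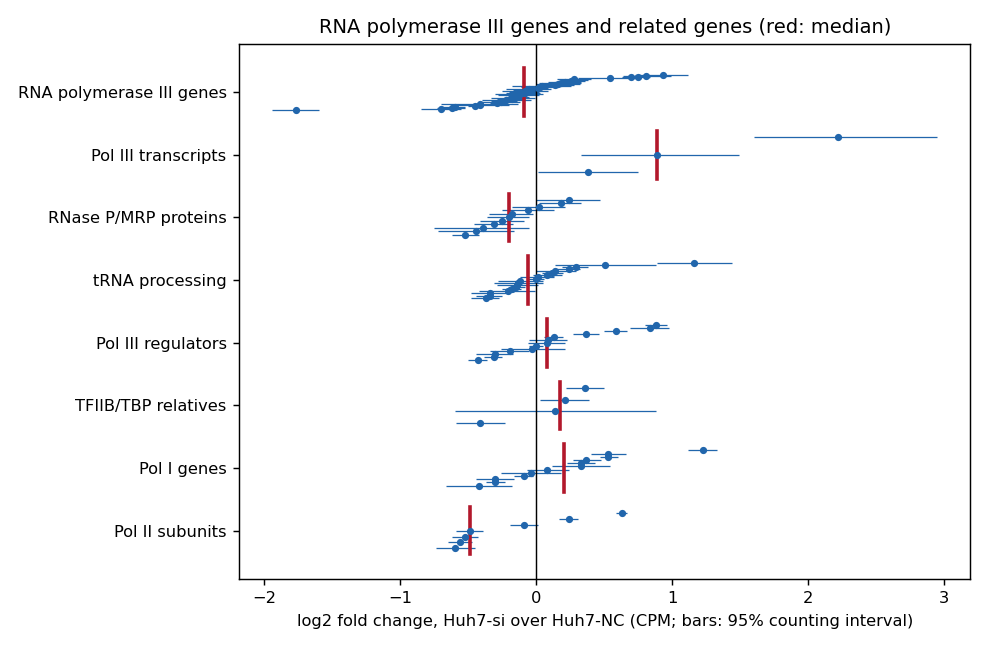
Log2 fold change of CPM (Huh7-si over Huh7-NC) with 95% counting intervals for the Pol III genes and for related lists, each point 1 gene with at least 10 reads and each red bar the list's median. The Pol III genes centre on -0.09 with BRF2 apart, the Pol II subunits on -0.49, and RN7SK (2.22) lies farthest above.

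The same motifs were counted over all members with a promoter window, which leaves out BRF2. Over whole windows of 300 bases (250 before to 50 after the start, any window of a gene), CCGGAAG was found in 12 of the 30 members (40%), in 12.2% of all 27305 genes and in 23.3% of the 9904 genes with at least 100 reads. GCATGCGC was found in 6 members (20%), 3.68% of all genes and 6.48% of those with at least 100 reads. CACGTG, the E-box of MYC and MAX, was found in 7 members (23.3%), 8.77% of all genes and 12.9% of those with at least 100 reads.

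CCAAT was found in 12 members (40%), 39.7% of all genes and 43.4% of those with at least 100 reads. TATAAA was found in 2 members (6.67%; GTF3C3 and SSB), 14% of all genes and 8.33% of those with at least 100 reads. ACTACAA, the core of the ZNF143 motif, was found in 2 members (6.67%; POLR2E and SNAPC3), against 3.43% and 4.75%. AAGATGGCG, the YY1 motif, was found in 3 members (10%), against 2.14% and 4.87%, and the octamer ATGCAAAT in 1 member (3.33%), another window of POU2F1 itself, against 2.19% and 1.86%.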

How the data were processed

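RNA-seq libraries of Huh7-NC and Huh7-si cells (1 each) were analysed. The authors deposited a table with an estimated count (expected count, partly fractional, unscaled) and a TPM value per gene and library. The deposited ratio (fold), log2 and p-value columns hold the authors' own comparison and were not used. The submitters' processing notes name TopHat2 2.0.12, Bowtie2 2.0.6 and GRCh37. The counting program and strand setting are not given in the sources used here. Of the gene identifiers, 94.8% were found in GENCODE release 29 (GRCh38), which gave overlapping genes, and since the builds differ no positions of members are given other than RefSeq promoters. By that annotation, 20 members overlap a gene with reads on the opposite strand and 2 on the same strand. Counts of 18 members were fractional.

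Counts were scaled to the library total (CPM), and the log2 fold change used a pseudocount of 0.5 reads. Intervals (95% Clopper-Pearson) used counts rounded to whole numbers, and a gene was called at 1.5-fold or 2-fold with an interval leaving out no change. Genes with fewer than 10 reads over both libraries were left out of backgrounds. Alternatives were edgeR 4.0.16 TMM and DESeq2 1.42.0 median of ratios scaling (R 4.3.3), the TPM columns, the difference from the median of genes in the same of 20 length bins, other read filters and other pseudocounts. Quotients of reads by TPM used genes with at least 200 reads in each library. Python 3.11.15, pandas 2.3.3, NumPy 2.4.6, SciPy 1.17.1 and matplotlib 3.10.9 were used. The calls were tested on simulated reads that held counting error only, so this says nothing on the spread between cultures. Members, gene lists and motifs were chosen with earlier results of these data known. Further genes of the list of regulators are not reported here. Named in full were BRF2, members called at 1.5-fold, the paralog pairs, the most and least abundant member, MAF1 and members whose direction turned under an alternative, and, in other lists, Pol III transcripts with at least 10 reads and the highest and lowest gene. The subunits of Pol I and Pol II beside POLR3A were named after their values were seen.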

Additional observations from a re-analysis of the deposited data

How the results depend on the processing

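Each condition had 1 library, so no library could be left out and no spread was measured. No paired analysis was possible because each condition has 1 library. BRF2 kept its direction throughout, at -1.96 (TMM), -1.97 (median of ratios) and -1.59 (TPM). At 2-fold, 1 member (POU2F1) was higher by TPM. At 1.5-fold, higher members numbered 2 with TMM, 2 with the median of ratios, 5 by TPM and 0 relative to genes of like length. Lower members numbered 7, 7, 1 and 2 in the same order. Relative to genes of like length, 14.0% of genes with at least 10 reads were higher and 6.03% lower. Shares over all genes were not computed with TMM, the median of ratios or TPM, so counts on those scales cannot be set against a background. The members' median was -0.29, -0.30 and 0.12 (TPM). Other pseudocounts and read filters left these counts within 1.5 times.

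Among genes whose interval left out no change, directions turned for TBP (-0.02 with TMM, -0.03 with the median of ratios), POLR3C (-0.05, -0.06), POP1 (-0.02, -0.03), MYC (-0.07, -0.08) and NSUN2 (-0.08, -0.09). By TPM they turned for BRF1 (0.35), SNAPC5 (0.06), MAF1 (0.13), POP4 (0.00), POP5 (0.11), RPP40 (0.32), UBTF (0.18), ELAC2 (0.01) and DKC1 (0.14). Relative to genes of like length they turned for POLR3A (-0.15), POLR3C (-0.11), POLR3D (-0.14), GTF3C3 (-0.10), GTF3C4 (-0.41), POP1 (-0.03), MYC (-0.12), RPTOR (-0.17), POLR1A (-0.14), POLR1B (-0.08), POLR2B (-0.01) and NSUN2 (-0.09). Genes whose interval held no change, such as ZNF143, GTF3C2, CRCP and POLR3G, also changed sign under some settings. TMM and the median of ratios subtract 1 constant from all genes, and the like-length scale subtracts the median of the gene's length bin. Among genes with at least 200 reads in each library, the median difference of the TPM log2 ratio from the CPM log2 ratio was 0.19. The cause of the turns by TPM was not tested. Members with the fewest reads, such as POLR3GL and SNAPC1, have the widest intervals.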
